A study of Homo sapiens with 9 samples.

Results

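The core genes of the ATF4 stress response were followed in MEC1 cells that were grown in 2D or bioprinted in 3D. The 10 genes, out of 59050 gene symbols in the count table, were taken by name: the transcription factors ATF4, ATF5, DDIT3 and CEBPB, the feedback regulators TRIB3, SESN2 and DDIT4, and the effectors CHAC1, ASNS and VLDLR. MEC1 is an established B-cell line derived from chronic lymphocytic leukemia (CLL). Its RNA was sequenced in 9 libraries, 3 from cells in 2D culture (2D), 3 from scaffolds printed in hydrogel and collected at day 7 (3D_7d) and 3 from scaffolds collected at day 14 (3D_14d). The labels name no drug and no genetic change in any group, give no culture time for 2D, and do not explain the prefix MECPGK that all sample titles carry. MEC1 is 1 cell line, so the groups stand for cultures of that line and not for patients. Nothing in the labels says that the 3 libraries of a group came from separate cultures, so the p-values measure only the spread between these libraries, which may be technical.

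ATF4 is the transcription factor of the integrated stress response. When kinases that sense a lack of amino acids, misfolded protein in the endoplasmic reticulum, double-stranded RNA or a lack of heme phosphorylate the translation factor eIF2alpha, general protein synthesis slows while translation of ATF4 mRNA rises. ATF4 protein then binds with C/EBP partners to promoters of genes for amino acid synthesis and uptake, tRNA charging and redox balance, and to genes such as DDIT3 and TRIB3 that end the response or lead to cell death. The libraries measure RNA only, so neither ATF4 protein nor eIF2alpha phosphorylation was observed here.

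The libraries held 54662799 to 85968686 counts, and all 10 genes passed the filter on low counts, with 13463 symbols tested. Of 5 B-cell markers, 5 were tested, and their summed level was 1976 to 2002 CPM (counts scaled to library size with TMM factors) in 2D, 2549 to 3179 in 3D_7d and 3087 to 3554 in 3D_14d. The summed levels of markers of T and NK cells (5 genes), monocytes and macrophages (4 genes), fibroblasts (4 genes), endothelium (2 genes) and red cells (2 genes) stayed between 0.0380 and 11.4 CPM in every library. CD3D was at 0 in 2D and 3D_14d, and so was LYZ. The fibroblast sum, 10.2 to 11.4 CPM in 2D, was 2.28 to 5.21 CPM in 3D_7d and 2.63 to 7.84 CPM in 3D_14d, the monocyte sum was highest in 3D_14d (3.78 to 5.15 CPM), and the red cell sum went from at most 0.0990 CPM in 2D to 1.28 to 2.19 CPM in 3D_7d and 2.25 to 4.32 CPM in 3D_14d. From 3D_7d to 3D_14d the mean of ITGAM went from 0.776 to 4.21 CPM. The other monocyte markers CD14 (0.388 to 0.252 CPM), CSF1R (0.429 to 0.163 CPM) and LYZ (0.0115 to 0 CPM) did not rise. The red cell sum of the scaffolds was mostly HBA1 (means 1.77 CPM in 3D_7d and 3.23 CPM in 3D_14d), with HBB at 0.0980 and 0.211 CPM. The part of these markers in the results was not tested. RNA of the 2D cultures was extracted with a column kit whose washes include DNase, and RNA of the scaffolds with TRIzol, a separate DNase treatment and then the same kit, so extraction method and culture cannot be told apart in the comparisons with 2D. The 2 time points in 3D share the method but were extracted on different days of culture, so day of extraction and time point cannot be told apart.

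The promoters of CHAC1 and ASNS are shown because they hold the core of the C/EBP-ATF response element, the element through which ATF4 and its C/EBP partners act. In the RefSeq promoter table (GRCh38.p14), which covers 250 bases before to 50 bases after the start of each gene and has all 10 genes, the letters TGATGNAA were searched on both strands and occurred in 2 of 10 promoters, against 3.62% of all 35116 promoters and 2.03% of the 13687 promoters of tested genes. The RefSeq start used for CHAC1 and for ASNS lies inside the span of the gene in the annotation of the counts. Capitals mark the match.
CHAC1 (chr15:40953221-40953520, plus strand): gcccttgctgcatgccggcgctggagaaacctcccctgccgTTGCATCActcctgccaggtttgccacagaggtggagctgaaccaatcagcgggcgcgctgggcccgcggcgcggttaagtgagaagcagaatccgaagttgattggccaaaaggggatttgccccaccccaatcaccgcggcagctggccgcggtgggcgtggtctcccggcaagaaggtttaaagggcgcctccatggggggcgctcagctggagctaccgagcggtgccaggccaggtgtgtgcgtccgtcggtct
ASNS (chr7:97872359-97872658, minus strand): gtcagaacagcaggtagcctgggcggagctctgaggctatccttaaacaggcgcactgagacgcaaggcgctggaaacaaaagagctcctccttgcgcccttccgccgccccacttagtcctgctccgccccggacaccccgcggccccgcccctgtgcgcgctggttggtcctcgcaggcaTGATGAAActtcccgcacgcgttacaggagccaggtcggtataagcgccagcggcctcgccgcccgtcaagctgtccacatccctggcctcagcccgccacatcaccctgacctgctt
In CHAC1 the match lay on the strand opposite to the gene, where it reads TGATGCAA, and began 209 bases before the start. In ASNS the match TGATGAAA lay on the strand of the gene, 68 bases before the start. The full cyclic AMP response element, TGACGTCA, which reads the same on both strands, was found in 0 of the 10 promoters, so the motifs did not overlap there, and in 1.85% of all promoters. A match in letters is not a measured binding site, and a missing match covers these 300 bases only.

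How well each gene was counted depended on its neighbours. ATF4 (chromosome 22:39519695-39522685, GRCh38, plus strand), TRIB3 (20:381021-397559, plus), SESN2 (1:28259518-28282491, plus) and CHAC1 (15:40952962-40956512, plus) share no exonic base with another gene of the annotation. DDIT3 (12:57516588-57521737, minus), CEBPB (20:50190734-50192689, plus), VLDLR (9:2621787-2660056, plus) and ATF5 (19:49928702-49933935, plus) share 13.0%, 11.8%, 14.9% and 22.9% of theirs, and DDIT4 (10:72273924-72276036, plus) shares 48.6% with its antisense gene DDIT4-AS1. ASNS (7:97851677-97872542, minus) shares 82.4% with AC079781.5 on the same strand. In the whole table, all 1585 symbols whose exonic bases are all shared had 0 counts in every library, against 10.7% of the 43873 symbols without a shared base. Bases shared by annotated genes were on this evidence not counted, and ASNS was counted over 517 of 2932 bases, of which 413 lie at 97871719-97872131 and 93 at 97872450-97872542, both toward the 5' end of the gene. Its counts, 112, 127 and 131 in 2D, 12, 9 and 12 in 3D_7d and 30, 17 and 65 in 3D_14d, come from those bases, so its level is uncertain in every group. The kit does not mark strand, so reads of antisense RNA that run past the annotated overlap cannot be told apart from those of the gene.

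Per length, in RPKM over the unshared bases, DDIT4 was the most abundant of the 10 RNAs in 2D (369 ± 9.21, SD, n = 3), followed by ATF4 (246 ± 2.03), DDIT3 (137 ± 5.50), TRIB3 (93.5 ± 5.15), CHAC1 (32.1 ± 0.716), SESN2 (28.1 ± 1.51), ATF5 (18.7 ± 2.09), CEBPB (4.62 ± 2.01), ASNS (3.19 ± 0.478) and VLDLR (0.906 ± 0.118). Only CEBPB and ASNS overlapped as neighbours in that order. In 3D_7d, CHAC1 stood seventh with 1.41 ± 0.216 RPKM, behind SESN2 (10.6 ± 1.28) and ATF5 (5.15 ± 0.315), and the other genes kept their order, with overlap between DDIT3 and TRIB3 and between CEBPB and ASNS. In 3D_14d, CHAC1 was again the fifth (20.4 ± 5.34 RPKM), but its libraries overlapped with those of SESN2 (17.1 ± 4.29), and DDIT4 (324 ± 124) overlapped with ATF4 (219.5 ± 31.1). SESN2 and ATF5, CEBPB and ASNS, and ASNS and VLDLR overlapped as well. The place of DDIT4 above ATF4 in 2D and 3D_14d rests on its shared bases being uncounted. Over the full exon length, mean RPKM of ATF4 and DDIT4 was 246 and 190 in 2D and 219.5 and 167 in 3D_14d. In 3D_7d it was 79.8 and 85.9.

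The first comparison asks how the genes differed between the scaffold at day 7 and 2D. All 10 fell at an adjusted p of at most 0.05 (quasi-likelihood test of edgeR, Benjamini-Hochberg adjustment over all tested genes), and in all 10 each 3D_7d library lay below each 2D library. Among all tested genes, 21.2% were called lower, 22.2% were called higher and 64.6% had groups without overlap. The median log2 fold change of the 10 genes was -1.88, and that of all tested genes was -0.0039. ASNS exceeded the CPM minimum through the 2D libraries and 1 library of 3D_14d alone, so the filter favoured a fall of that gene. Without ASNS, 9 of 9 genes fell, with a median of -1.86. CEBPB (0.646 to 0.952 CPM) and replicates 1 and 2 of VLDLR (0.346 and 0.256 CPM) were also below the CPM minimum in 3D_7d. These genes were retained mainly through 2D and 3D_14d, so the filter could favour low 3D_7d values of them too. The genes together took 0.166% to 0.171% of all counts in 2D, 0.0499% to 0.0537% in 3D_7d and 0.106% to 0.127% in 3D_14d.

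**Figure D1:**
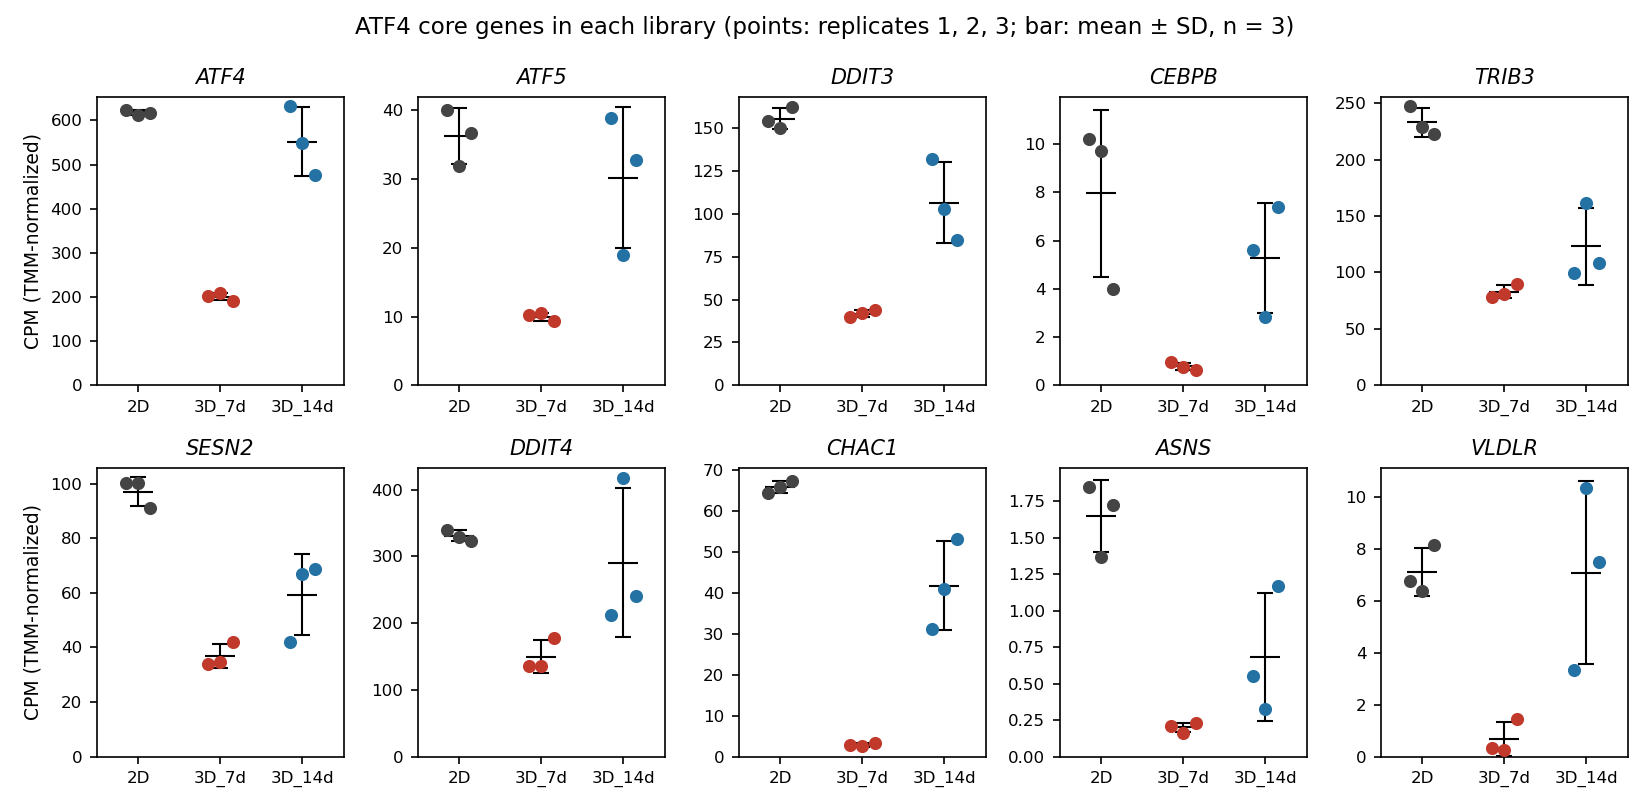
Level of each ATF4 core gene in the 9 libraries. Each panel is 1 gene, the vertical axis is CPM with TMM normalization and starts at 0, points are libraries of 2D, 3D_7d and 3D_14d, and bars give the mean ± SD (n = 3). All 3D_7d points lie below all 2D and all 3D_14d points in every panel, for ATF4 at 192 to 208 CPM against 613 to 623 CPM in 2D and 476 to 632 CPM in 3D_14d.

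Of the transcription factors, ATF4 itself measured 623, 613 and 617 CPM in 2D, 202, 208 and 192 CPM in 3D_7d, and 632, 548 and 476 CPM in 3D_14d. The 2D libraries were nearly identical, the 3D_7d libraries were low without exception, and the 3D_14d libraries spread on both sides of 2D. Its RNA fell by 1.62 on the log2 scale at day 7 (SE 0.140, edgeR adjusted p = 7.23e-06), a 3.08-fold lower level.

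ATF5, a close relative of ATF4 whose mRNA is also translated under eIF2alpha phosphorylation, measured 40.0, 32.0 and 36.7 CPM in 2D, 10.2, 10.5 and 9.30 CPM in 3D_7d, and 38.9, 18.9 and 32.8 CPM in 3D_14d. Day 7 was uniformly low, and replicate 2 of 3D_14d stood between day 7 and 2D. The fall at day 7 was by 1.86 on the log2 scale (SE 0.235, edgeR adjusted p = 7.86e-05).

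DDIT3, which encodes CHOP, a factor that links lasting stress to cell death, measured 154, 150.2 and 162 CPM in 2D, 39.8, 42.0 and 43.7 CPM in 3D_7d, and 132, 103 and 84.8 CPM in 3D_14d. The 3 groups did not overlap, with 3D_14d between the others. DDIT3 fell by 1.90 at day 7 on the log2 scale (SE 0.165, edgeR adjusted p = 7.56e-06).

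CEBPB, a C/EBP partner of ATF4, measured 10.2, 9.73 and 3.98 CPM in 2D, 0.952, 0.767 and 0.646 CPM in 3D_7d, and 5.59, 2.83 and 7.37 CPM in 3D_14d. Replicate 3 of 2D was well below the other 2D libraries and lay within the range of 3D_14d. The level at day 7 was 10.1-fold lower (log2 fold change -3.33, SE 0.442, edgeR adjusted p = 0.000109).

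The feedback regulators had the 3 smallest fitted falls at day 7. TRIB3, a pseudokinase induced by ATF4 and CHOP that binds ATF4 and dampens it, measured 247, 229 and 223 CPM in 2D, 78.3, 81.1 and 89.6 CPM in 3D_7d, and 99.2, 162 and 108 CPM in 3D_14d. Its 3 groups did not overlap, and replicate 2 of 3D_14d was the library nearest to 2D. TRIB3 fell by 1.49 on the log2 scale at day 7 (SE 0.180, edgeR adjusted p = 5.74e-05).

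SESN2, a leucine sensor that holds back mTORC1 when amino acids are scarce, measured 100.2, 100.2 and 91.1 CPM in 2D, 33.9, 34.7 and 42.0 CPM in 3D_7d, and 42.2, 67.0 and 68.7 CPM in 3D_14d. Replicate 1 of 3D_14d lay just above the highest 3D_7d library, and the other 3D_14d libraries lay between day 7 and 2D. SESN2 fell by 1.40 on the log2 scale at day 7 (SE 0.188, edgeR adjusted p = 0.000117).

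DDIT4, also called REDD1, another inhibitor of mTORC1, measured 339.6, 329 and 323 CPM in 2D, 136, 136 and 178 CPM in 3D_7d, and 213, 418 and 240.3 CPM in 3D_14d. At day 14, replicate 2 was above every 2D library and the other libraries were below them. DDIT4 fell by 1.14 on the log2 scale at day 7 (SE 0.224, edgeR adjusted p = 0.00143), the smallest fall of the 10 genes.

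Among the effectors, CHAC1 showed the largest fall of the 10 genes. It encodes an enzyme that degrades glutathione, and measured 64.4, 65.9 and 67.4 CPM in 2D, 2.72, 2.57 and 3.40 CPM in 3D_7d, and 31.3, 40.9 and 53.1 CPM in 3D_14d. The 3D_7d libraries rested on 141 to 179 counts each, so the drop was measured well above the floor of 3 counts, and the 3 groups were separate. CHAC1 was 22.7-fold lower at day 7 than in 2D (log2 fold change -4.51, SE 0.224, edgeR adjusted p = 1.24e-07) and ranked 5th by p-value among all tested genes.

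ASNS, the enzyme that makes asparagine, measured 1.85, 1.37 and 1.72 CPM in 2D, 0.208, 0.164 and 0.228 CPM in 3D_7d, and 0.556, 0.323 and 1.17 CPM in 3D_14d over its unshared bases. Each 3D_7d library was below all others, and replicate 3 of 3D_14d stood apart from the other 3D_14d libraries toward 2D. The fall at day 7 was by 3.03 on the log2 scale (SE 0.532, edgeR adjusted p = 0.000706). As the filter retained ASNS through its level in 2D, this fall is given as a description. The overlapping gene AC079781.5, whose own counts come from 1996 unshared bases, also fell at day 7, by 1.09 on the log2 scale (SE 0.245, edgeR adjusted p = 0.00338).

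VLDLR, a receptor for very low density lipoprotein, measured 6.76, 6.40 and 8.15 CPM in 2D, 0.346, 0.256 and 1.44 CPM in 3D_7d, and 3.35, 10.4 and 7.52 CPM in 3D_14d. Replicate 3 of 3D_7d was several times above the other 3D_7d libraries yet below every other library. VLDLR was 10.5-fold lower at day 7 (log2 fold change -3.39, SE 0.580, edgeR adjusted p = 0.000606). Without that replicate the log2 fold change was -4.59 at day 7 and 4.56 from day 7 to day 14.

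The second comparison asks where the genes stood at day 14 relative to 2D. Of the 10 genes, 4 were called lower, 0 were called higher and 5 had groups without overlap. Among all tested genes, 17.2% were called lower, 19.0% were called higher and 49.7% had groups without overlap. The median log2 fold change was -0.57, beside 0.023 over all tested genes. The comparison shares its 2D libraries with the one at day 7, so the day 7 and day 14 values are given side by side without a measure of likeness.

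The 4 genes that fell were TRIB3 (log2 fold change -0.92, SE 0.177, edgeR adjusted p = 0.00173), SESN2 (-0.71, SE 0.185, adjusted p = 0.00969), CHAC1 (-0.66, SE 0.191, adjusted p = 0.0174) and DDIT3 (-0.55, SE 0.160, adjusted p = 0.0179). They stood at 52.8%, 61.1%, 63.4% and 68.5% of 2D at day 14, after 35.6%, 37.9%, 4.40% and 26.9% at day 7. Without replicate 3 of 2D, DDIT3 kept its log2 fold change of -0.55 with an adjusted p of 0.0558.

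The other 6 genes did not pass the threshold at day 14. ATF4 had a log2 fold change of -0.16 (SE 0.136, edgeR adjusted p = 0.375), 89.3% of 2D, and ATF5 one of -0.26 (SE 0.226, adjusted p = 0.39), 83.4% of 2D. Libraries of both groups overlapped for each of them. DDIT4 (-0.19, SE 0.221, adjusted p = 0.539), CEBPB (-0.60, SE 0.394, adjusted p = 0.255) and VLDLR (-0.01, SE 0.509, adjusted p = 0.994) also overlapped. ASNS had the lowest value of the 10 (-1.26, SE 0.481, adjusted p = 0.0564) without overlap between the groups. Single libraries decided 2 of these outcomes: without replicate 3 of 3D_14d, ASNS was at -1.90 (adjusted p = 0.00953), and without replicate 2 of 3D_14d, DDIT4 was at -0.54 (adjusted p = 0.0178). In that fit of ASNS the filter retained the gene through the 2D libraries alone. This favoured a fall, so the ASNS value is given as a description.

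**Figure D2:**
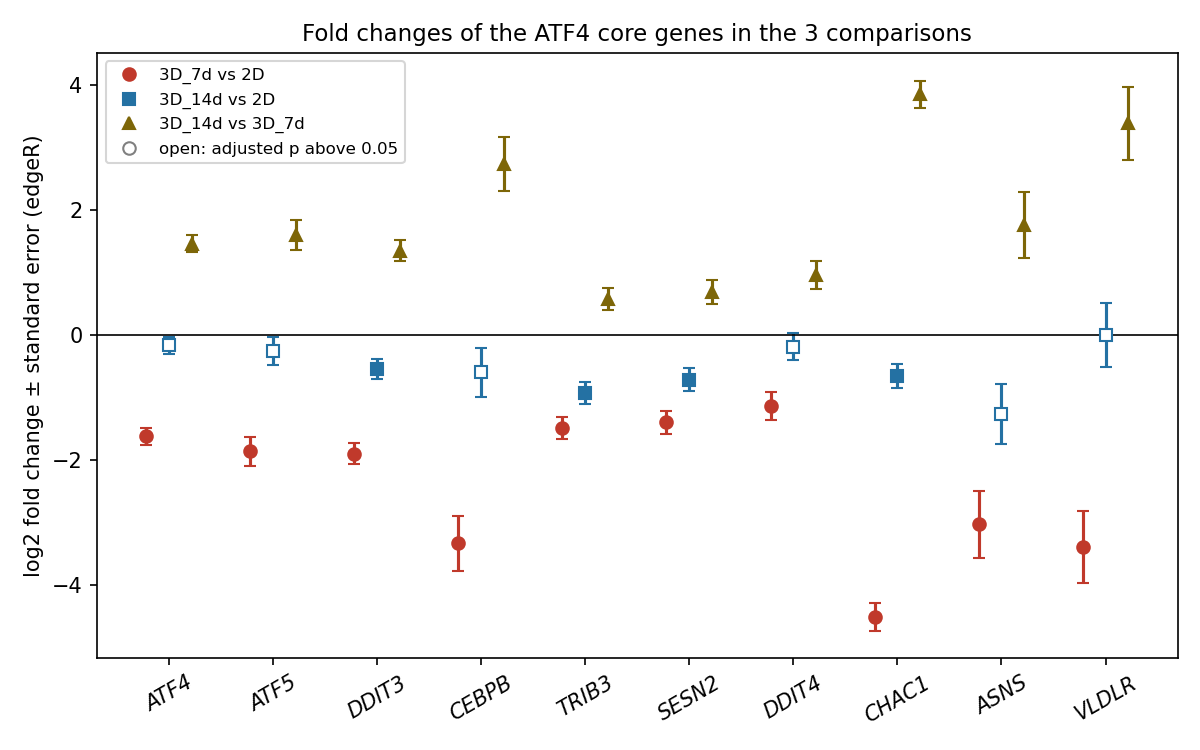
Log2 fold change with its standard error for each of the 10 genes in the 3 comparisons. Circles are 3D_7d vs 2D, squares 3D_14d vs 2D and triangles 3D_14d vs 3D_7d, and open symbols have an adjusted p above 0.05 in edgeR's quasi-likelihood test. All circles lie below 0 (from -4.51 for CHAC1 to -1.14 for DDIT4), all triangles above 0 (from 0.57 for TRIB3 to 3.85 for CHAC1), and 4 of the 10 squares are filled.

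The third comparison sets the time points against each other, with the same extraction method for both. All 10 genes rose from day 7 to day 14 at an adjusted p of at most 0.05, all without overlap between the groups, with a median log2 fold change of 1.53. Among all tested genes, 14.5% were called higher, 13.6% were called lower and 39.3% had groups without overlap, and the median was -0.0012. This comparison shares its 3D_7d libraries with the comparison of day 7 and 2D, so low values in those libraries enter both.

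CHAC1 rose most, 14.4-fold (log2 fold change 3.85, SE 0.218, edgeR adjusted p = 1.05e-06), and ranked 3rd by p-value among all tested genes. VLDLR rose 10.4-fold (3.38, SE 0.581, adjusted p = 0.00165) and CEBPB 6.66-fold (2.74, SE 0.435, adjusted p = 0.00104). These 3 genes were also at 4.40%, 9.57% and 9.93% of 2D at day 7, the lowest shares of the 10.

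The transcription factors ATF4, ATF5 and DDIT3 rose by similar amounts, with log2 fold changes of 1.46 (SE 0.139, edgeR adjusted p = 8.68e-05), 1.60 (SE 0.233, adjusted p = 0.000656) and 1.35 (SE 0.162, adjusted p = 0.00021). Whether these amounts differ from each other was not tested. The feedback regulators DDIT4 (0.96, SE 0.223, adjusted p = 0.00808), SESN2 (0.69, SE 0.185, adjusted p = 0.016) and TRIB3 (0.57, SE 0.177, adjusted p = 0.0302) had the smallest rises. TRIB3 lost the call without replicate 2 of 3D_14d, at 0.32 (adjusted p = 0.072), without replicate 1 of 3D_7d (adjusted p = 0.0789) and without replicate 2 of 3D_7d (adjusted p = 0.0891), and SESN2 lost it without replicate 1 of 3D_7d (adjusted p = 0.0517) or replicate 2 of 3D_7d (adjusted p = 0.0629).

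ASNS rose by 1.76 on the log2 scale (SE 0.528, edgeR adjusted p = 0.026), on 9 to 12 counts at day 7. It was at 1.13 without replicate 3 of 3D_14d (adjusted p = 0.0928), and it also lost the call without replicate 1, 2 or 3 of 3D_7d, at adjusted p-values of 0.0574, 0.0873 and 0.0584. The log2 fold change of AC079781.5, which covers most of the ASNS exons, was 0.61 between the time points (SE 0.245, adjusted p = 0.079).

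The libraries of 3D_14d differed more among themselves than those of the other groups. For the 10 genes the median SD of log2 CPM within a group was 0.079 in 2D, 0.19 in 3D_7d and 0.46 in 3D_14d, beside 0.14, 0.19 and 0.34 over all tested genes. The genes did not vary in 1 order at day 14. ATF4, ATF5 and DDIT3 were highest in replicate 1, TRIB3, DDIT4 and VLDLR were highest in replicate 2, and CEBPB, SESN2, CHAC1 and ASNS were highest in replicate 3. The SD of ATF4 was 0.012 in 2D and 0.20 in 3D_14d.

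Set against ATF4 in the same library, the other genes had mean log2 ratios to ATF4 that moved in different directions. From 2D to 3D_7d the ratio of CHAC1 to ATF4 fell by 2.89 on the log2 scale, that of VLDLR by 2.19, that of CEBPB by 1.61 and that of ASNS by 1.42. The ratios of DDIT4, SESN2 and TRIB3 were higher at day 7, by 0.47, 0.22 and 0.13. From day 7 to day 14 the ratio of TRIB3 fell by 0.91, that of SESN2 by 0.79 and that of DDIT4 by 0.55, while that of CHAC1 was 2.38 higher. Exact permutation tests of 3 against 3 libraries cannot go below a two-sided p of 0.1, which 15 of the 27 ratio tests reached (adjusted p = 0.18), so no ratio passes a threshold of 0.05.

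Paralogues were set beside the members of their families. Of 8 paralogues, 7 were tested, and at day 7 2 rose and 0 fell, against 22.2% and 21.2% of all tested genes. CHAC2, which carries the same enzyme activity as CHAC1 at a lower rate, measured 7.34, 5.92 and 6.85 CPM in 2D, 18.7, 16.3 and 13.0 CPM in 3D_7d, and 6.11, 3.86 and 6.85 CPM in 3D_14d. It was high at day 7, where CHAC1 was low, with a log2 fold change of 1.26 (SE 0.243, edgeR adjusted p = 0.0013), and it fell by 1.51 from day 7 to day 14 (SE 0.246, adjusted p = 0.00115). SESN1, which p53 induces, rose at day 7 from a mean of 0.993 CPM (log2 fold change 1.32, SE 0.458, adjusted p = 0.0329), with overlap between the groups. This call was lost in 6 alternatives, among them the fit with the replicate block (adjusted p = 0.0542) and those without replicate 1 or 3 of 2D or of 3D_7d (adjusted p = 0.0746 to 0.155). SESN3 was at -0.06 (SE 0.445, adjusted p = 0.919). TRIB1 and TRIB2 had values of -0.32 (SE 0.291, adjusted p = 0.39) and -0.17 (SE 0.275, adjusted p = 0.638). LRP8, a receptor related to VLDLR, was at 0.30 (SE 0.232, adjusted p = 0.311) at day 7. It fell by 0.68 from day 7 to day 14 (SE 0.234, adjusted p = 0.0468), so that 2 of the 7 fell and 0 rose between the time points, against 13.6% and 14.5% of all tested genes. LRP8 lost this call in 12 alternatives, among them RLE scaling (adjusted p = 0.0523) and 8 of the fits without 1 library (adjusted p = 0.0713 to 0.16). DDIT4L was too low to be tested.

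**Figure D3:**
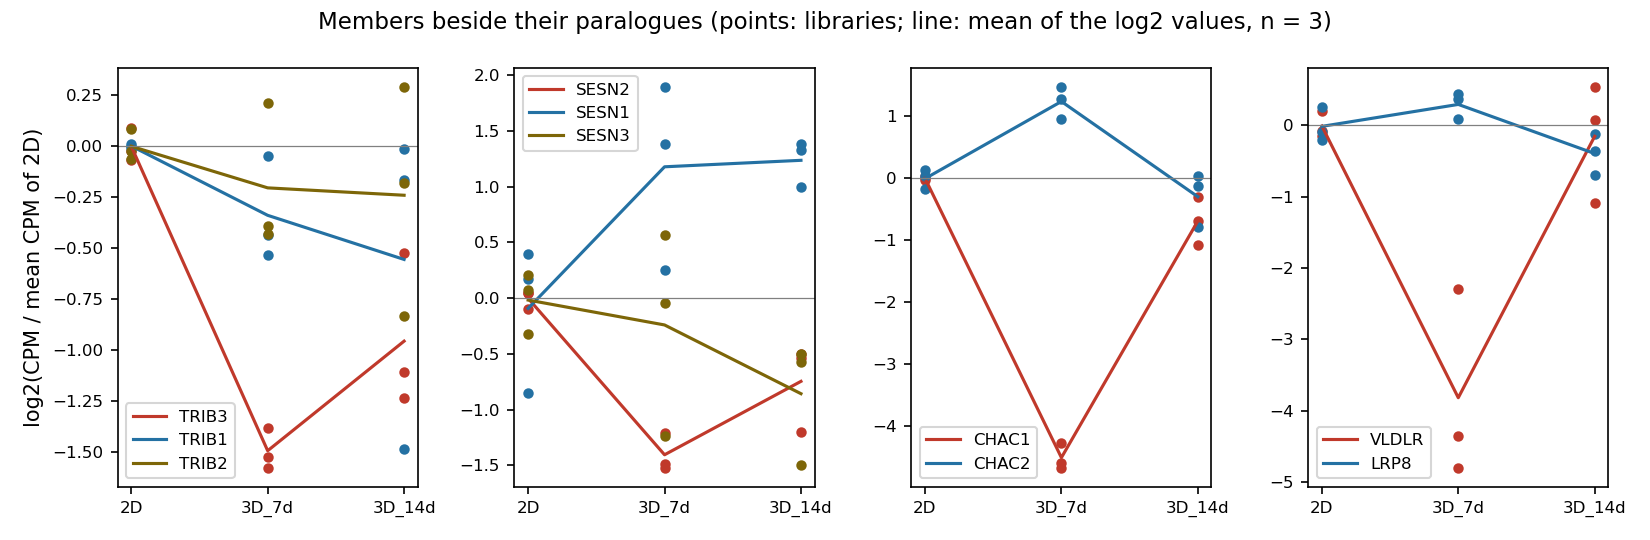
TRIB3, SESN2, CHAC1 and VLDLR beside paralogues, as log2 of CPM over the mean CPM of the gene in 2D. Points are libraries, lines join the means of the log2 values (n = 3), and the grey line marks the mean of 2D. CHAC1 and CHAC2 lie on opposite sides of the grey line at day 7, with log2 fold changes of -4.51 and 1.26.

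Upstream of ATF4, the list of eIF2alpha kinases and phosphatases also held EIF2S1, GCN1, IMPACT, OMA1 and DELE1. Of its 11 tested genes 3 rose and 0 fell at day 7, against 22.2% and 21.2% of all tested genes. The median log2 fold change was 0.11. None of the 4 kinases passed the threshold at day 7. EIF2AK1, the heme-regulated kinase, was at 0.04 (SE 0.180, edgeR adjusted p = 0.872), EIF2AK2, which senses double-stranded RNA, at -0.14 (SE 0.208, adjusted p = 0.605), EIF2AK3, the kinase PERK of the endoplasmic reticulum, at -0.12 (SE 0.210, adjusted p = 0.668), and EIF2AK4, the amino acid sensor GCN2, at 0.33 (SE 0.150, adjusted p = 0.0953). The 3 that rose were GCN1, the activator of GCN2 (1.11, SE 0.151, adjusted p = 0.000132), EIF2S1, which encodes eIF2alpha (0.92, SE 0.154, adjusted p = 0.000529), and PPP1R15B. PPP1R15A, the stress-induced subunit of the eIF2alpha phosphatase, was at -0.35 (SE 0.146, adjusted p = 0.0659), and was called lower in 6 alternatives, among them the replicate block (adjusted p = 0.0489) and DESeq2 (adjusted p = 0.0448). From day 7 to day 14, 5 of the 11 fell and 0 rose, against 13.6% and 14.5% of all tested genes, with GCN1 falling by 0.89 and EIF2S1 by 0.89.

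Of 14 tested bZIP partners and relatives of ATF4, 8 fell and 1 rose at day 7, against 21.2% and 22.2% of all tested genes. From day 7 to day 14, 5 rose and 0 fell, against 14.5% and 13.6%. DBP, a circadian factor, fell by 2.43 on the log2 scale (SE 0.226, edgeR adjusted p = 1.1e-05) and BATF3 by 1.73 (SE 0.208, adjusted p = 5.68e-05). CEBPD was at 0.354 ± 0.149 CPM in 2D and 0.326 ± 0.279 CPM in 3D_7d, and rose to 3.42 ± 1.14 CPM in 3D_14d (SD, n = 3), with a log2 fold change of 3.38 from day 7 (SE 0.615, adjusted p = 0.00224). Its libraries reached at most 0.464 CPM in 2D and 0.640 CPM in 3D_7d, below the CPM minimum of 1. The filter thus retained CEBPD through 3D_14d alone and favoured a rise, so this rise is given as a description. It is counted among the genes that rose.

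Other genes commonly listed as ATF4 targets were described by class. Among all tested genes, 21.2% were called lower and 22.2% higher at day 7, and 14.5% higher and 13.6% lower between the time points. Of 11 genes of amino acid synthesis, 9 fell and 1 rose at day 7 (median log2 fold change -2.85), among them PHGDH, the entry enzyme of serine synthesis (-4.42, SE 0.678, edgeR adjusted p = 0.000292), CTH of cysteine synthesis (-3.92, SE 0.305, adjusted p = 4.45e-06) and GPT2, which makes alanine (-2.85, SE 0.202, adjusted p = 2.91e-06). PHGDH was at 20.6 to 21.3 CPM in 2D and 0.0346 to 1.70 CPM in 3D_7d, so the size of its fall is uncertain. CBS, also among the 9, was at 3.32 to 4.06 CPM in 2D, 0.0346 to 0.190 CPM in 3D_7d and 0.296 to 1.37 CPM in 3D_14d. The filter thus retained CBS mainly through 2D, which favoured a fall of that gene. At day 14, 7 of the 11 were called lower than 2D, against 17.2% of all tested genes. From day 7 to day 14, 7 of the 11 rose and 1 fell (median 1.58). Of 10 tested amino acid transporters, 7 fell and 0 rose at day 7 (median -1.33), and 5 rose and 0 fell between the time points. They included SLC7A11, the cystine importer (-3.22 at day 7, SE 0.395, adjusted p = 6.43e-05), SLC7A5, the large neutral amino acid carrier (-2.04, SE 0.241, adjusted p = 5.03e-05), and the glycine transporter SLC6A9 (-4.60, SE 0.683, adjusted p = 0.000234). SLC6A9 was at 5.90 to 6.58 CPM in 2D and 0 to 0.467 CPM in 3D_7d, so the size of its fall is uncertain.

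The tRNA charging genes had the smallest median of the target classes at day 7. Of 13, 6 fell and 0 rose at day 7 (median -0.46), against 21.2% and 22.2% of all tested genes. AARS was at -1.38 (SE 0.202, edgeR adjusted p = 0.000214) and CARS at -0.72 (SE 0.154, adjusted p = 0.00252). Between the time points 2 of the 13 rose and 1 fell, against 14.5% and 13.6% of all tested genes. SARS rose by 0.73 from day 7 to day 14 (SE 0.136, adjusted p = 0.00259). The response element letters were in 6 of 11 of their promoters, in 3 of 9 of the transporters, in 2 of 15 of the other targets and in 0 of 6 of the synthesis genes with a promoter in the table. Of 19 tested other targets, 13 fell and 0 rose at day 7 (median -0.89), and 12 rose and 0 fell between the time points (median 0.83). The shares of all tested genes are those given beside the tRNA charging genes. EIF4EBP1, a brake on translation, was at -2.11 (SE 0.159, adjusted p = 3.67e-06), STC2, a secreted glycoprotein, at -3.70 (SE 0.389, adjusted p = 2.41e-05), and the stress hormone GDF15 at -3.65 (SE 0.596, adjusted p = 0.000437).

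**Figure D4:**
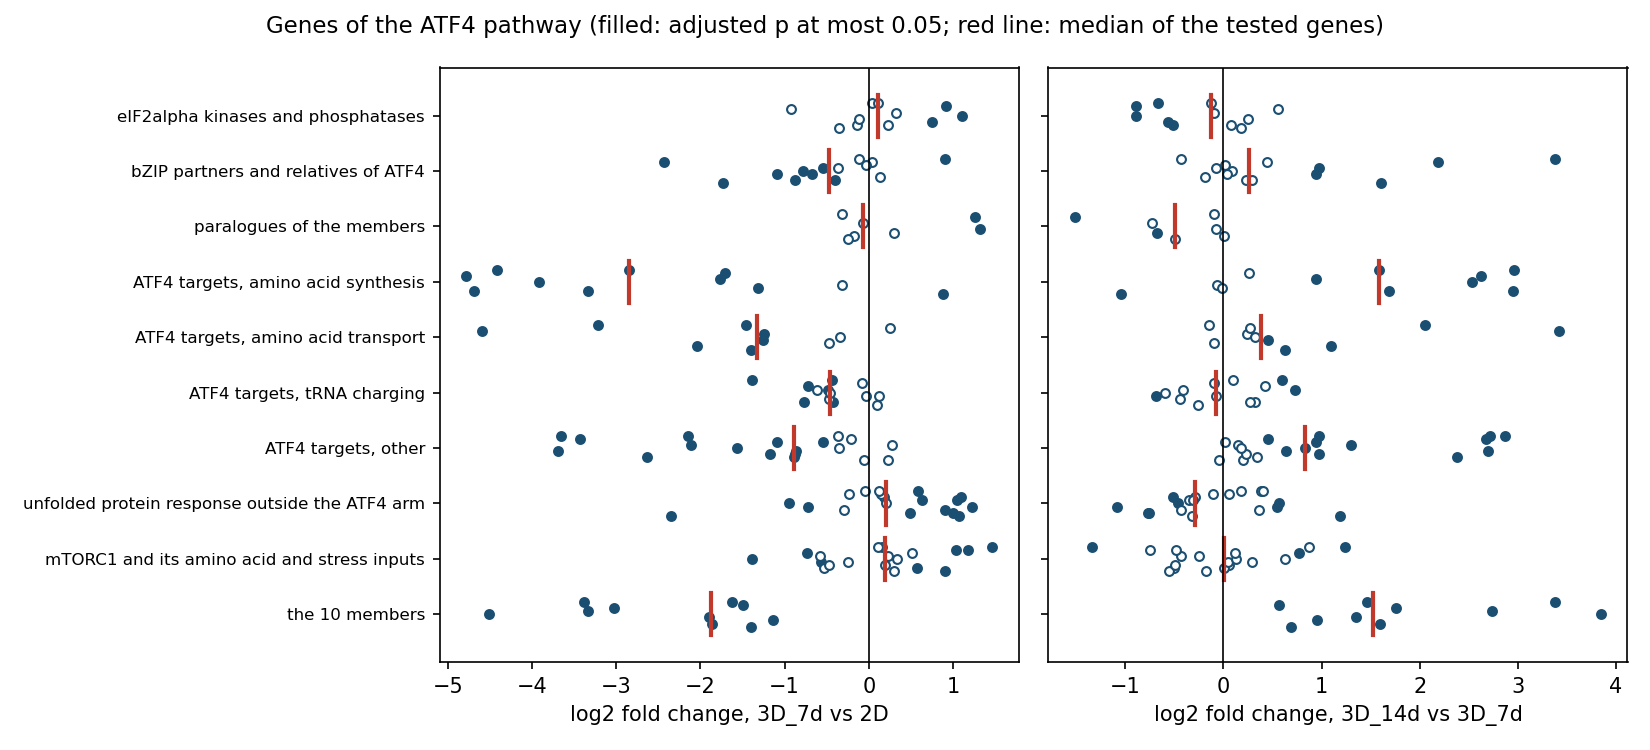
Log2 fold changes of the genes of each pathway list and of the 10 core genes, for 3D_7d vs 2D on the left and 3D_14d vs 3D_7d on the right. Each point is 1 tested gene, filled where the adjusted p was at most 0.05, and the red line is the median of the list. The medians of the synthesis genes, -2.85 and 1.58, and of the 10 core genes, -1.88 and 1.53, lie on opposite sides of 0 in the 2 panels.

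Of 19 genes of the unfolded protein response outside the ATF4 arm, 9 rose and 3 fell at day 7 (median 0.20), against 22.2% and 21.2% of all tested genes. Between the time points 3 of the 19 rose and 5 fell, against 14.5% and 13.6%. CALR, a chaperone of the endoplasmic reticulum, rose by 1.10 at day 7 (SE 0.142, edgeR adjusted p = 9.13e-05), and ERN1, the stress sensor IRE1, fell by 2.35 (SE 0.160, adjusted p = 2.56e-06). Of 19 tested genes of mTORC1 and its inputs, 5 rose and 3 fell at day 7 (median 0.20), near the 22.2% and 21.2% of all tested genes, and 2 rose and 1 fell between the time points, against 14.5% and 13.6%. MTOR rose by 1.47 (SE 0.175, adjusted p = 5.35e-05) and FLCN fell by 1.39 (SE 0.191, adjusted p = 0.000138). Against 2D at day 14, 19.0% of all tested genes were called higher and 17.2% lower. There, 0 rose and 1 fell of the list of eIF2alpha kinases and phosphatases, and the gene that fell was OMA1. Of the bZIP genes 2 rose and 4 fell, of the transporters 0 rose and 6 fell. Of the tRNA charging genes 0 rose and 5 fell, and of the other targets 2 rose and 5 fell. Of the unfolded protein response 5 rose and 1 fell, and of the mTORC1 list 6 rose and 4 fell. CEBPG, PPP1R15A, ATF3, JDP2 and ATF6 stand in 2 lists each and are counted in both.

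The genes most like the 10 in pattern were found by the root mean square difference of log2 CPM, centred over the 9 libraries, from the mean of the 10. The nearest was LY9, a surface receptor of lymphocytes, at 0.14, with log2 fold changes of -2.24 at day 7, -0.71 at day 14 and 1.53 between them. PPM1N (0.19), LTBP4 (0.24), EPS8L2 (0.24), EIF4EBP1 (0.25), MACROD1 (0.25), LINC00426 (0.25) and PPP1R13L (0.26) followed. Of the 10 genes themselves, DDIT3 (0.32), ATF4 (0.37) and ATF5 (0.37) were nearest to their mean, and CHAC1 (0.99) and VLDLR (0.99) were farthest from it. Nearest to ATF4 alone were AC243960.1 (0.13), ECHDC2 (0.17) and RNASET2 (0.18). As all libraries are bulk RNA, fewer cells with these transcripts and less of them per cell cannot be told apart.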

How the data were processed

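RNA of 9 MEC1 samples was measured by single-read RNA-Seq from libraries made with a SMART-Seq v4 kit, which does not mark strand. The authors trimmed reads with Trimmomatic (version 0.39), aligned them with STAR (version 2.5.3a) to GRCh38, and assigned them to GENCODE genes with featureCounts (version 1.6.4). The strand setting and the treatment of reads with several alignments are not given in the sources used here. The values used are raw counts per gene as deposited, without normalization. Samples were grouped by culture method and time in the labels.

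In R (version 4.3.3), a gene was tested when 3 or more libraries exceeded a CPM of 1, which 13463 of the 51726 symbols with counts did. The edgeR package (version 4.0.16) was used with TMM factors, 1 mean per group over all 9 samples and the quasi-likelihood test. Benjamini-Hochberg adjustment covered all tested genes of a comparison, with a threshold of 0.05. Values per library are CPM after TMM. The log2 CPM values of the likeness measure and of the spread used a prior count of 2, so those of low genes are drawn together. RPKM was computed over exonic bases that no other symbol shares. A base count ignores that a read can reach across an edge of such a stretch. The pipeline was tested on simulated counts with known fold changes, in which far fewer genes changed than were called here. That test is no check of the scaling at such a share of changed genes.

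The 10 genes, the pathway lists and the markers were chosen with earlier results of these data known. Named pathway genes are the 2 with the smallest p at day 7 among those called in each list, the called gene with the largest absolute log2 fold change between the time points, the 4 eIF2alpha kinases, PPP1R15A and the paralogues, of which 1 is not reported here. Genes of like pattern are the 8 nearest to the mean of the 10 and the 3 nearest to ATF4. PPP1R15B, OMA1 and CBS were named outside this rule after their values were seen. Older symbols of tRNA synthetase genes were matched through RefSeq synonyms. The alternatives were RLE scaling, total counts alone, DESeq2 (version 1.42.0), no filter, filterByExpr, fits of 6 libraries alone, a replicate block, and each library left out in turn.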

Additional observations from a re-analysis of the deposited data

Results flagged for a closer look

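The difference between the scaffold time points, tested directly with the quasi-likelihood test of edgeR and Benjamini-Hochberg adjustment, passed the threshold for all 10 genes, so that their distances from 2D at day 7 and day 14 differed. The log2 fold change from day 7 to day 14 was 1.46 for ATF4 (adjusted p = 8.68e-05), 1.60 for ATF5 (adjusted p = 0.000656), 1.35 for DDIT3 (adjusted p = 0.00021) and 2.74 for CEBPB (adjusted p = 0.00104). It was 0.57 for TRIB3 (adjusted p = 0.0302), 0.69 for SESN2 (adjusted p = 0.016) and 0.96 for DDIT4 (adjusted p = 0.00808). For the effectors it was 3.85 for CHAC1 (adjusted p = 1.05e-06), 1.76 for ASNS (adjusted p = 0.026) and 3.38 for VLDLR (adjusted p = 0.00165). Each gene was higher in 3 of 3 libraries at day 14 than in every library at day 7. The call was lost in 6 alternatives for TRIB3, in 5 for ASNS and in 2 for SESN2, so the difference is less certain for these genes.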

How the results depend on the processing

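At day 7 against 2D, 10 of 10 genes were called lower under every alternative run. At day 14 against 2D, 4 genes were called, 3 to 6 under the alternatives, and between the time points 10 were called, 7 to 10 under the alternatives. Of the fold changes of the 10 genes under the alternatives, 458 kept direction and call, 14 lost the call, 5 gained it and 2 changed sign, both for VLDLR at day 14 against 2D, whose values without 1 library ranged from -0.38 to 0.34. With total counts alone as scaling, which moved the median over all tested genes to -0.16 at day 7 and -0.18 at day 14, ATF4 was called lower at day 14 (-0.38, adjusted p = 0.0198) and so was ASNS (-1.44, adjusted p = 0.0413). That scaling also moved the split of all calls, from 2985 higher and 2853 lower to 2156 and 3580 at day 7, and from 2557 and 2318 to 1603 and 3248 at day 14. TRIB3 lost its rise between the time points with no filter (adjusted p = 0.0819), filterByExpr (0.0531) and only the 6 samples of the contrast (0.0604), and ASNS lost it with no filter (0.0936) and was not retained with only the 6 samples. The cause was not tested. The replicate numbers were not treated as pairs, as no pairing is stated. Deviations of libraries with the same number correlated between -0.1 and 0.185 over all groups. Between 2D and 3D_14d these correlations were 0.185, 0.108 and 0.0931, beside -0.135 to 0.0399 for libraries with unlike numbers. With the replicate block, 10, 5 and 10 genes were called in the 3 comparisons, ASNS being added at day 14 against 2D (-1.40, adjusted p = 0.0405).

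Of the fold changes of the named pathway genes, 1463 kept direction and call under the alternatives, 52 lost the call, 23 gained it and 36 changed sign. The losses were most frequent for LRP8 (12 alternatives) and AARS (9) between the time points, for SESN1 (11) and STC2 (5) at day 14 against 2D and for SESN1 (6) at day 7, and the gains for PPP1R15A (6) at day 7. Among pathway genes with values near 0, sign changes occurred without 1 library, with ranges at day 7 of -0.027 to 0.064 for EIF2AK1, -1.08 to 0.26 for CEBPD and -0.54 to 0.25 for SESN3. At day 14 against 2D they were -0.29 to 0.11 for EIF2AK1, -0.31 to 0.11 for EIF2AK2, -0.038 to 0.087 for EIF2S1, -0.47 to 0.078 for TRIB2 and -0.030 to 0.21 for MTOR. Between the time points they were -0.33 to 0.082 for EIF2AK1, -0.17 to 0.27 for EIF2AK2, -0.18 to 0.027 for EIF2AK4, -0.35 to 0.25 for TRIB1, -0.29 to 0.26 for TRIB2 and -0.40 to 0.32 for SESN1. Total counts alone gave -0.12 for EIF2AK1 at day 7, -0.067 for EIF2AK3, -0.18 for EIF2S1 and -0.078 for MTOR at day 14 against 2D, and -0.038 for TRIB2 between the time points. No filter gave -0.036 for EIF2S1 at day 14 against 2D and -0.037 for TRIB2 between the time points, where filterByExpr gave -0.0072 and the replicate block -0.0068. Of the counts of called genes per pathway list, 123 moved by over 1.5 times under an alternative and 741 did not. ASNS counts limit that gene to 517 bases, and depth limits ASNS, CEBPB and VLDLR at day 7. Among the named pathway genes, low levels at day 7 also limit PHGDH, SLC6A9, CBS, GDF15 and CEBPD.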
